A study of Arabidopsis thaliana with 4 samples.

Results

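Chromosome 5 of Arabidopsis thaliana carries 805 entries that the deposited gene table names as transposable element (TE) genes, that is, gene identifiers of chromosome 5 with the suffix TEG. They were chosen by identifier alone, out of 38194 entries of the gene table, of which 3897 are TE genes. Small RNAs were sequenced from seedlings of 2 genotypes at 10 days after germination, PORI, which the labels call the control, and PORI rpt2a, an rpt2a mutant in the PORI background. Each genotype had 2 libraries. The labels do not spell out PORI and give no allele of rpt2a, and RPT2a is known as an ATPase subunit of the proteasome's regulatory particle. Nothing in the labels says that the 2 libraries of a genotype came from separate plantings, so the p-values below measure the spread between libraries only.

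In plants, small interfering RNAs (siRNAs) of 24 nt are made from TE transcripts of RNA polymerase IV by the polymerase RDR2 and the nuclease DCL3, and direct DNA methylation through AGO4. siRNAs of 21 and 22 nt come mainly from DCL4 and DCL2 and are known from the silencing of RNA polymerase II transcripts. In Arabidopsis, TEs are dense around each centromere and sparse in the chromosome arms. Locus numbers in gene identifiers increase along a chromosome, and here they served as the position. The stretch with locus numbers from 25000 to below 40000 is called the middle, and the rest are called the arm with low numbers and the arm with high numbers.

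The gene tables held 2886928 to 4806891 counts of reads from 18 to 26 nt per library, the fewest in PORI rpt2a replicate 2. The chromosome 5 TE genes took 46385 and 32787 of these in the PORI libraries and 75480 and 28441 in the PORI rpt2a libraries. Replicate 2 of PORI rpt2a also stood apart from the rest. Its log2 levels on the CPM scale (counts of a gene relative to those of its library) correlated over genes at 0.699 and 0.718 with the PORI libraries and at 0.821 with its own replicate, while the PORI libraries correlated at 0.914 with each other. Reads of 18 to 20 nt made up 43.2% of its gene table, against 28.4 to 32.6% in the other 3 libraries, and reads of chloroplast genes made up 14.2%, against 17.5 to 19.3%. The part of these differences in the results was not tested, and values without this library are given where they turn a direction or move a count of calls. Among the 50 values of single TE genes named below, 0 passed an adjusted p of 0.05 in edgeR and 14 did in DESeq2. The edgeR count also changed when either mutant library was left out. Part of the 50 were named for small p-values in these same data, which favours such calls. Over all read lengths DESeq2 gave 4698 genes an adjusted p, and called 9.26% of these higher and 1.15% lower.

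Of the 805 TE genes, 18 had no count in any library, 665 had at least 20 counts over the 4 libraries and 26 had at least 1000. The median was 101 counts per TE gene over the 4 libraries. The reads were spread over many entries: the 8 TE genes with most counts held 11.2% of the 183093 reads, and 98 TE genes made up 50%. TE genes are repetitive, and how reads that map to several copies were counted is not given in the sources used here, so the value of a single entry can include reads of near-identical copies. For 4 entries the values repeated those of another entry in every library and length. Levels are per entry and not per length, and are compared between libraries, not between genes.

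Reads of 24 nt were the main class in every library, and reads of 21 and 22 nt were a larger part in both PORI rpt2a libraries. The 24 nt share of the TE gene reads was 60.6% (95% Wilson interval 60.2 to 61.0) and 59.3% (58.8 to 59.8) in the PORI libraries and 54.5% (54.2 to 54.9) and 45.9% (45.3 to 46.5) in the PORI rpt2a libraries. The intervals cover counting error only and not the spread between libraries. PCR copies of a read are counted as separate reads, so the intervals can be too narrow even for counting error. The means were 59.9% ± 0.92 (SD, n = 2) and 50.2% ± 6.12 (SD, n = 2). The groups did not overlap, and the exact two-sided permutation p was 0.333, the smallest that 2 against 2 libraries allow. The difference of −9.75 percentage points was −5.43 without PORI rpt2a replicate 2 and −14.08 when the other library of that genotype was left out.

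The share of 21 and 22 nt reads was 18.9% (95% Wilson interval 18.6 to 19.3) and 19.6% (19.18 to 20.04) in the PORI libraries. It was 27.7% (27.4 to 28.0) and 35.6% (35.1 to 36.2) in the PORI rpt2a libraries. The means were 19.3% ± 0.48 (SD, n = 2) and 31.7% ± 5.60 (SD, n = 2), a difference of 12.4 percentage points that was 8.46 without PORI rpt2a replicate 2. The groups were again apart, and the exact permutation p was 0.333. Most of the difference lay in 22 nt reads, the size that DCL2 makes, which held 13.6%, 13.8%, 20.01% and 25.3% in the order PORI 1, PORI 2, PORI rpt2a 1 and PORI rpt2a 2. The 21 nt share was 5.34%, 5.77%, 7.72% and 10.3% in the same order. Both sizes kept their proportion to each other, with 2.54, 2.40, 2.59 and 2.45 reads of 22 nt for each read of 21 nt. Against 24 nt reads the 22 nt reads stood at a ratio of 0.224, 0.233, 0.367 and 0.552. Reads of 23 nt had lower shares in the mutant libraries, at 15.1%, 15.2%, 11.9% and 11.5%. Over the whole gene table the 21 and 22 nt share showed no such separation, at 30.9%, 30.2%, 31.1% and 29.5%.

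**Figure D1:**
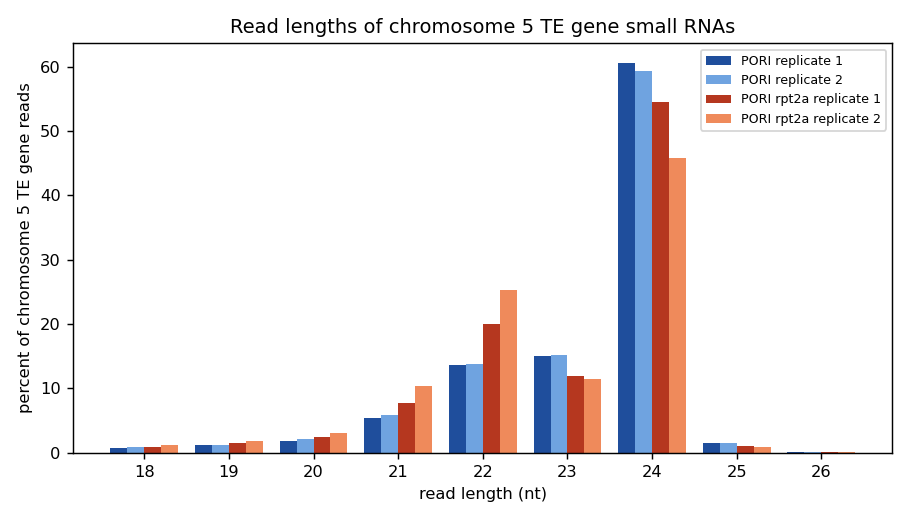
Share of chromosome 5 TE gene reads, in percent, at each read length from 18 to 26 nt in the 4 libraries. The 24 nt share lies at 60.6% and 59.3% in PORI and at 54.5% and 45.9% in PORI rpt2a, while the 22 nt share lies at 13.6% and 13.8% against 20.01% and 25.3%.

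On the scale of CPM after normalisation by trimmed mean of M values (TMM), the summed level of the 805 TE genes was 8185 and 8088 in the PORI libraries and 13796 and 14273 in the PORI rpt2a libraries. Both mutant libraries were above both control libraries, by 0.79 on the log2 scale (exact permutation p = 0.333). The size depended on the read length. The summed level of 22 nt reads was 1112, 1119, 2760 and 3611 CPM, a log2 difference of 1.501, and that of 21 nt reads was 437.4, 466.5, 1064 and 1476 CPM, a difference of 1.47. The 24 nt reads stood at 4959, 4796, 7521 and 6547 CPM, a smaller difference of 0.52. Hence all of these classes were higher in both mutant libraries on this scale, and the shorter ones by more. For these sums every read length was scaled by the TMM library size from all lengths. The tests of single lengths below took TMM sizes from that length's own counts, so their fold changes are on another scale. Relative to all counts of the gene, TE and miRNA tables, the groups overlapped in 24 nt reads. PORI replicate 2 had 19441 such reads for 4809644 counts, and PORI rpt2a replicate 2 had 13045 for 3241463. The scale itself mattered: as a plain percentage of the gene table the TE genes made up 0.988%, 0.812%, 1.57% and 0.985%, the groups overlapped, and the log2 difference was 0.47 (exact permutation p = 0.667). In bulk seedlings, more cells carrying an RNA and more of that RNA per cell cannot be told apart.

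Along the chromosome, the higher level in PORI rpt2a lay in the middle. The 704 TE genes of the middle held 88.9% of all reads of the 805. Their summed level was 6998 and 6931 CPM in the PORI libraries and 12569 and 13174 CPM in the PORI rpt2a libraries, a log2 difference of 0.89. The 37 TE genes of the arm with low numbers stood at 462.5, 456.1, 500.1 and 513.4 CPM, a log2 difference of 0.14. That small difference was −0.12 when libraries were scaled by all counts of the gene, TE and miRNA tables, called 3-table scaling below. The 64 TE genes of the arm with high numbers stood at 723.8, 700.3, 726.7 and 585.1 CPM, with overlapping groups. Their log2 difference of −0.13 was 0.030 without PORI rpt2a replicate 2 and −0.39 with 3-table scaling. With TMM, summed over all read lengths, the arms thus showed little difference, and its sign depended on the scaling or on 1 library. Their 21 and 22 nt reads were higher in both mutant libraries, at 158.1, 159.1, 252.6 and 317.7 CPM for both arms together, a log2 difference of 0.84 that was 0.57 with 3-table scaling, again without overlap. Their 24 nt reads had log2 differences of −0.041 on the side with low numbers and −0.36 on the side with high numbers. Over all lengths the middle was higher at 0.62 with 3-table scaling.

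The contrast between the middle and the arms is free of scaling, since it is a ratio within each library. The log2 ratio of reads in the middle to reads in both arms was 2.56 and 2.58 in the PORI libraries and 3.36 and 3.58 in the PORI rpt2a libraries. The means were 2.57 ± 0.016 (SD, n = 2) and 3.47 ± 0.16 (SD, n = 2), a difference of 0.90 that exceeded the spread within both genotypes, with an exact permutation p of 0.333. Without PORI rpt2a replicate 2 the difference was 0.78. Each main siRNA size showed it: the difference was 0.79 for 21 nt reads, 0.67 for 22 nt reads, 0.79 for 23 nt reads and 0.85 for 24 nt reads. A narrower middle, from 28000 to below 37000, gave 0.87, and a wider one, from 20000 to below 45000, gave 1.05.

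In bins of 5000 locus numbers, 12 of 14 bins held at least 200 reads. Of these 12, the summed level was higher in both mutant libraries in 7 and lower in both in 4, and the groups overlapped in 1. These counts depend on the scale, since 3-table scaling lowers every log2 difference by 0.26 and leaves 3 bins higher, 3 lower and 6 overlapping. The bins from 0, 25000 and 30000 were still higher in both mutant libraries on that scale, and those from 15000, 50000 and 55000 still lower. Scaled to the gene table total without TMM, the bin from 25000 overlapped at 0.41, and those from 0 and 30000 were still higher. The bin from 30000, with 341 TE genes, stood out at 2843, 2871, 6162 and 7175 CPM, a log2 difference of 1.22. Its neighbour from 25000, with 198 TE genes, stood at 2599, 2509, 4284 and 4162 CPM, a difference of 0.73. The bin from 35000, with 165 TE genes, stood at 1557, 1552, 2123 and 1837 CPM, a difference of 0.35, which was 0.083 with overlapping groups under 3-table scaling. The larger difference in the bin from 30000 was present in 24 nt reads alone, at 0.48, 0.97 and 0.11 in these 3 bins, and in 21 and 22 nt reads, at 1.39, 1.79 and 1.08.

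The bins of the arms were thin, with 1 to 23 TE genes each. In the arm with low numbers the log2 differences were 0.56 in the bin from 0, 0.071 in that from 5000, where the groups overlapped, 0.41 in that from 10000, −0.75 in that from 15000 and 0.26 in that from 20000, the last being −0.0028 with 3-table scaling. The bin from 15000 stood at 107.6, 100.1, 86.1 and 44.2 CPM, lowest in PORI rpt2a replicate 2. In the arm with high numbers the difference was 0.23 in the bin from 40000, and −0.038 with 3-table scaling. The next 3 bins, from 45000, 50000 and 55000, were lower in both mutant libraries, with log2 differences of −0.45, −0.77 and −0.70. With 3-table scaling the groups overlapped in the bin from 45000. The bin from 50000, for example, stood at 79.9, 69.8, 58.1 and 33.1 CPM. There the 24 nt reads had a log2 difference of −1.21 and the 21 and 22 nt reads one of 0.19. The last bins, from 60000 and from 65000, held 1 TE gene each.

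**Figure D2:**
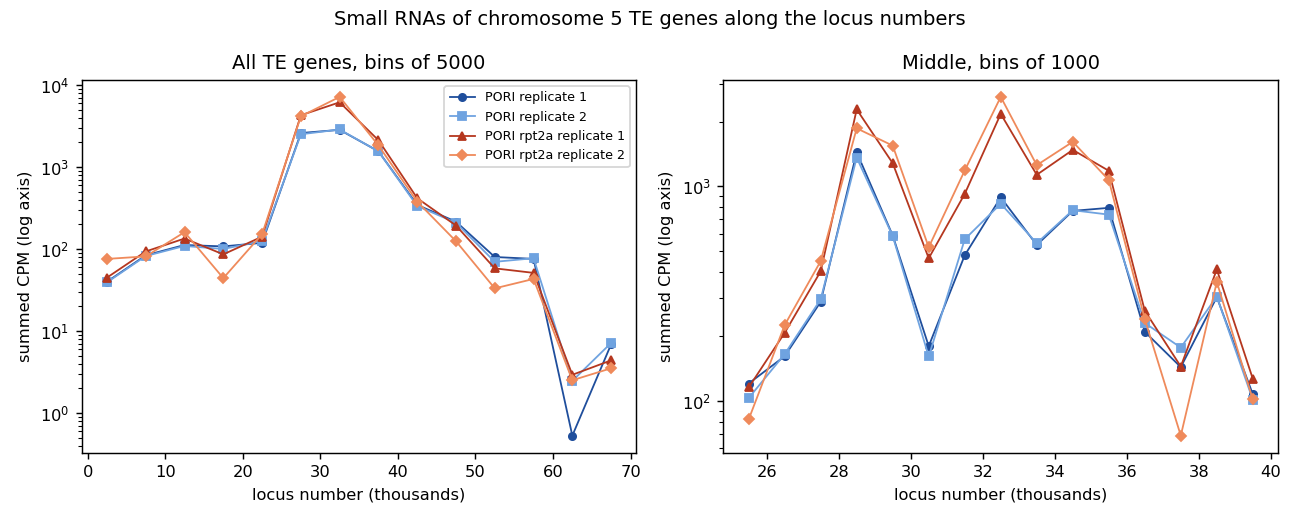
Summed small RNA level (TMM-normalised CPM, log axis) of the chromosome 5 TE genes in bins of 5000 locus numbers, 1 point per library. The bin from 30000 shows the widest gap, at 2843 and 2871 CPM in PORI against 6162 and 7175 CPM in PORI rpt2a, and the bins from 45000 to 55000 lie lower in both mutant libraries on this scale, that from 45000 overlapping with 3-table scaling.

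Within the middle, bins of 1000 locus numbers placed the largest differences between 29000 and 35000. All 15 of these bins held at least 200 reads, 12 were higher in both mutant libraries, 0 were lower in both and 3 overlapped, where 3-table scaling gave 6, 1 and 8. The differences ran from −0.20 in the bin from 25000 through 0.41, 0.53 and 0.56 to 1.26 in the bin from 29000. The 5 bins from 30000 to 34000 had differences of 1.53, 1.01, 1.47, 1.15 and 1.00, after which the bins from 35000 and 36000 had 0.56 and 0.19. The bin from 32000, with 118 TE genes, stood at 887.2, 828.8, 2173 and 2609 CPM. The bin from 30000 stood at 179.6, 160.8, 461.5 and 519.4 CPM. In both of these bins each mutant library was far above each control library. The bin from 37000 had a difference of −0.68, and its levels of 143.5, 176.9, 144.4 and 68.8 CPM overlapped narrowly between the groups. It was the 1 bin lower in both mutant libraries with 3-table scaling, at −0.94. With DESeq2 size factors it was also lower in both, at −0.69.

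The shift towards 21 and 22 nt reads was seen along more of the chromosome than the higher level. Their share was higher in both mutant libraries in 11 of the 12 bins of 5000 and in 15 of the 15 fine bins of the middle. In the middle as a whole it was 19.9%, 20.6%, 28.4% and 36.2%, and in both arms together 13.3%, 13.8%, 20.6% and 28.9%. The middle was thus above the arms in every library, by 6.55, 6.82, 7.83 and 7.28 percentage points. The bin that overlapped, from 15000, had 12.3%, 11.8%, 12.1% and 20.5%. Among the fine bins, the bin from 37000 had the lowest share, with means of 11.1% in PORI and 16.6% in PORI rpt2a. The highest PORI mean, 25.7%, was in the bin from 30000, and the highest PORI rpt2a mean, 35.8%, in the bin from 32000.

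**Figure D3:**
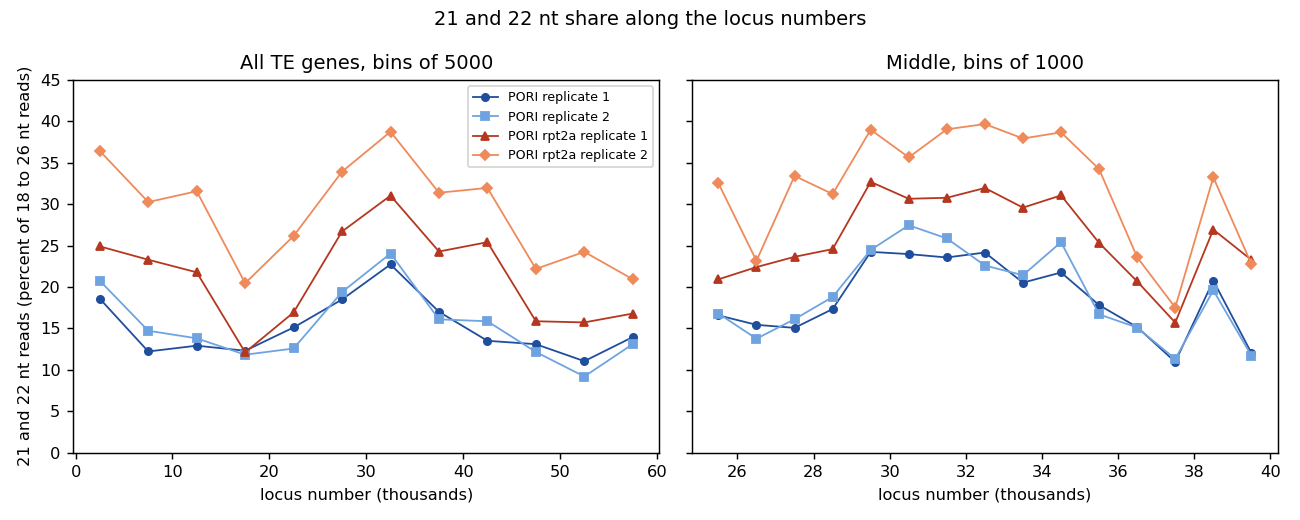
Share of 21 and 22 nt reads among reads of 18 to 26 nt, in percent, for the chromosome 5 TE genes in bins of 5000 locus numbers, 1 point per library. Both PORI rpt2a libraries lie above both PORI libraries in 11 of the 12 bins with at least 200 reads, the exception being the bin from 15000.

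Single TE genes were tested with edgeR's quasi-likelihood test over the whole gene table, with Benjamini-Hochberg adjustment over all genes tested. Of the 805, 600 passed the filter on low counts. A TE gene can pass it through the genotype in which it is high, so the counts below describe these 600 and not all members. The test called 0 of 600 at an adjusted p under 0.05. Over all 8110 genes tested it called 0% as higher and 0.0247% as lower in PORI rpt2a. At an unadjusted p under 0.05 there were 215 of the 600, which is 35.8%, against 23.03% of all genes. DESeq2, run as an alternative, called 76 of the 438 to which it gave an adjusted p, all of them higher in PORI rpt2a. Its background, over all genes to which it gave an adjusted p, was 9.26% called higher and 1.15% called lower. All 76 lay in the middle, with 17 in the bin from 25000, 56 in that from 30000 and 3 in that from 35000. The 0 of edgeR depended on the fit. It was 260 without replicate 1 of PORI rpt2a, 194 of them higher and 66 lower, when 16.1% of all genes were called higher and 13.5% lower. It was 202 without replicate 2 of that genotype, 197 of them higher and 5 lower, when 11.2% of all genes were called higher and 2.08% lower. In both of these fits the lone mutant library is assumed to vary like the controls. With all 4 libraries it was 66 with no filter on low counts, 63 of them higher and 3 lower, when 2.29% of all genes were called.

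Tests of single read lengths gave the same count of calls. For 24 nt reads edgeR called 0 of 530 TE genes tested, against 0% of all genes in either direction. There 167 (31.5%) had an unadjusted p under 0.05, against 28.3% of all genes. DESeq2 called 9 of the 300 to which it gave an adjusted p, against 3.01% of all such genes called higher. For 22 nt reads edgeR called 0 of 243, against 0% of all genes. There 58 (23.9%) had an unadjusted p under 0.05, a lower share than the 34.0% of all genes, and DESeq2 called 2 of 225, against 0.524% called higher. For 21 nt reads edgeR called 0 of 119, against 0% of all genes. There 45 (37.8%) had an unadjusted p under 0.05, against 33.9% of all genes, and DESeq2 called 0 as higher. For 24 nt reads edgeR called 195 (36.4%) when PORI rpt2a replicate 1 was left out, a share near the 35.9% of all genes, and 54 of these were lower. It also called TE genes without PORI rpt2a replicate 2, at a share near that of all genes, and without PORI replicate 2, at a share below it. For 22 nt reads it called 57 (23.4%) and 29 (9.18%) without either mutant replicate, below the 30.2% and 20.3% of all genes. For 21 nt reads it called 14 (11.1%) and 5 (2.56%), below the 15.5% and 5.23% of all genes.

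Single TE genes were also counted by direction. Of the 787 TE genes with at least 1 count, both mutant libraries were above both control libraries in 346, which is 44.0%, where 14.5% of all genes with a count did so. Both were below in 134, which is 17.0%, against 22.0% of all genes. By region, 330 TE genes of the middle were higher in both mutant libraries and 96 lower, while the arm with low numbers had 8 higher and 12 lower and the arm with high numbers 8 higher and 26 lower. In the arm with low numbers this differs from the sum, which was higher in both mutant libraries. Among the 600 tested, the median log2 fold change was 0.59, with 412 above 0. It was 0.74 in the middle, −0.36 in the arm with low numbers and −0.47 in the arm with high numbers, beside −0.036 over all genes tested. With 3-table scaling the median over all genes was −0.25. In the bin from 30000 the median was 1.12 and 221 of 253 were above 0, against 0.47 in the bin from 25000 and 0.060 in that from 35000. Neighbouring TE genes shared the sign in long stretches: 41 tested in a row, from AT5G29720 to AT5G31753, had a fold change above 0, and so had 32 in a row from AT5G32037 to AT5G32431. Neighbours can share reads where they are copies, so they are not independent.

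The same counts were made for single read lengths, where the TE genes that passed the filter are different sets and fewer at 21 and 22 nt, so the read lengths cannot be ranked by them. For 21 nt reads 95 of the 119 tested were higher in both mutant libraries, against 35.8% of all genes, and 4 were lower in both, against 35.7%. For 22 nt reads 130 of 243 were higher, against 34.4%, and 26 lower, against 34.0%. For 24 nt reads 244 of 530 were higher, against 31.2%, and 110 lower, against 34.0%, and over all read lengths 312 of 600 were higher, against 27.5%, and 101 lower, against 29.6%. The regions stood in a like order in 24 nt reads. There the median log2 fold change was 0.49 over 469 tested TE genes of the middle, −0.47 over 22 of the arm with low numbers and −0.68 over 39 of the arm with high numbers, beside −0.052 over all genes.

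**Figure D4:**
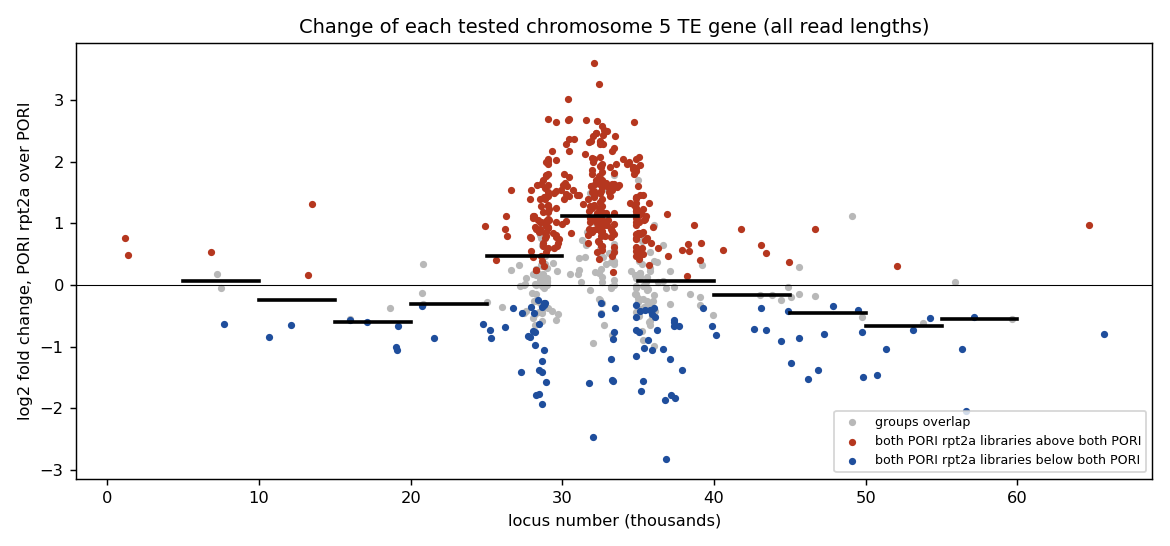
Log2 fold change (PORI rpt2a over PORI) of the 600 tested chromosome 5 TE genes against locus number, 1 point per TE gene. The points of the middle have a median of 0.74 and those of the arms medians of −0.36 and −0.47, and the fold changes run from −2.82 to 3.60.

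The 8 TE genes with most counts all lie in the middle, and 7 of them were higher in both mutant libraries. Of the chromosome 5 TE genes tested 52% were so, and of all genes tested 27.5%. Counts over both genotypes chose the 8, so a TE gene high in either genotype was more likely to be among them. AT5G31927, the most abundant with 4807 counts, stood at 190.0 and 259.7 CPM in the PORI libraries and at 300.3 and 518.9 CPM in the PORI rpt2a libraries. Its log2 fold change was 0.86 ± 0.43 (SE; edgeR adjusted p = 0.295). AT5G29075 stood at 131.1, 127.5, 297.7 and 403.5 CPM, a fold change of 1.44 ± 0.36 (adjusted p = 0.0892 in edgeR and 0.0165 in DESeq2). AT5G33050 stood at 55.2, 59.0, 169.3 and 156.1 CPM, a fold change of 1.51 ± 0.31 (adjusted p = 0.0703 in edgeR and 0.0132 in DESeq2). For AT5G33050 the mutant replicates lay close together and well above the controls, whereas for AT5G31927 the spread within each genotype was wide. AT5G35535 stood at 78.9, 76.2, 151.3 and 185.7 CPM, and AT5G29975 at 78.2, 66.9, 144.2 and 143.0 CPM. AT5G34841 stood at 96.0, 98.7, 194.7 and 132.5 CPM, and AT5G28696 at 82.4, 71.0, 147.7 and 98.9 CPM. For these 4 the groups were apart and the log2 fold changes were 0.69 to 1.12, with edgeR adjusted p-values of 0.113 to 0.299. Without PORI rpt2a replicate 2 the 6 other than AT5G31927 and AT5G38383 had adjusted p-values of 0.0045 to 0.0346, and without replicate 1 AT5G31927 had 6.68e-04. AT5G38383, near the high-numbered edge of the middle, stood at 139.4, 132.5, 151.2 and 94.4 CPM with overlapping groups. Its fold change of −0.14 ± 0.36 was 0.23 without PORI rpt2a replicate 2.

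The 5 TE genes with the smallest p-values over all read lengths lay between AT5G29591 and AT5G32678. They had 213 to 623 counts over the 4 libraries, above the median of 101 per TE gene. AT5G32053 stood at 13.4 and 17.8 CPM in the PORI libraries and at 63.2 and 64.7 CPM in the PORI rpt2a libraries, a log2 fold change of 2.04 ± 0.31. AT5G29591 stood at 8.999, 10.11, 37.8 and 40.2 CPM, a fold change of 2.03 ± 0.31. AT5G32654 stood at 6.53, 6.41, 27.4 and 36.6 CPM, a fold change of 2.29 ± 0.34. In each of these the replicates of a genotype lay close together beside the gap between genotypes. The 5 were chosen by p-value from these same libraries, so the choice itself favours such a gap. The other p-values of this paragraph rest on the same counts. AT5G30762 stood at 4.59, 5.43, 24.3 and 27.6 CPM, and AT5G32678 at 4.76, 3.70, 22.7 and 23.6 CPM. Their fold changes were 2.37 ± 0.35 and 2.43 ± 0.36. All 5 had an edgeR adjusted p of 0.0686, and DESeq2 gave them adjusted p-values of 0.00196 to 0.00505. In edgeR without PORI rpt2a replicate 2 they were 0.00254 to 0.00265.

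For 24 nt reads, the smallest p-values went in both directions. AT5G32511 had 119 and 54 reads of 24 nt in the PORI libraries and 335 and 169 in the PORI rpt2a libraries, a log2 fold change of 2.08 ± 0.38. AT5G32404 had 69, 46, 215 and 63 reads of 24 nt and AT5G32495 had 68, 39, 191 and 60. On the library-scaled values both had a fold change of 1.55. AT5G31999 went the other way, with 39, 32, 5 and 2 reads of 24 nt and a fold change of −3.01 ± 0.56. It lies between TE genes with higher levels in PORI rpt2a, and over all lengths it stood at 8.47, 9.37, 1.65 and 1.51 CPM. AT5G32678 was again among the 5, with 14, 8, 68 and 28 reads of 24 nt. The edgeR adjusted p was 0.0767 for all 5.

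For 22 and 21 nt reads, AT5G32306 was in both lists. It had 17, 18, 149 and 103 reads of 22 nt, a log2 fold change of 2.24 ± 0.43 (edgeR adjusted p = 0.0633), and 7, 4, 45 and 46 reads of 21 nt, a fold change of 2.92 ± 0.55 (adjusted p = 0.0888). Over all lengths it stood at 12.5, 22.7, 70.9 and 153.1 CPM. Its 24 nt reads made up 41.2% of its reads, less than in the TE genes as a whole. AT5G32485 had 4, 5, 45 and 38 reads of 22 nt and AT5G32654 had 7, 6, 51 and 26. AT5G31962 had 1, 0, 13 and 8 reads of 22 nt and AT5G30450 had 1, 1, 13 and 7, so that the controls gave almost none for these. The edgeR adjusted p-values of these 4 were 0.0647 to 0.0675. For 21 nt reads the others were AT5G34728 with 1, 1, 18 and 10 reads, AT5G33050 with 15, 13, 84 and 47, AT5G33252 with 9, 13, 59 and 44, and AT5G28710 with 8, 4, 39 and 18. Their log2 fold changes were 1.97 to 3.42, with an adjusted p of 0.0888. Every TE gene of these lists had more of such reads in both mutant libraries on the library-scaled values. The choice of scale bears on these read lengths. With 3-table scaling edgeR called 91 TE genes (37.4%) for 22 nt reads and 23 (19.3%) for 21 nt reads, all higher, when it called 24.9% and 9.12% of all genes as higher. However, the median over all genes then stood at 0.90 for 22 nt reads, from 0.031, and at 0.36 for 21 nt reads, from −0.099.

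In the arms, the TE gene with most counts in each bin gave the following. On the side with low numbers, AT5G13475 stood at 39.2 and 43.4 CPM in the PORI libraries and at 75.9 and 129.5 CPM in the PORI rpt2a libraries, a log2 fold change of 1.31 ± 0.36 (edgeR adjusted p = 0.108, and 0.0369 without PORI rpt2a replicate 2). AT5G24915 stood at 39.2, 41.2, 57.4 and 99.9 CPM, and AT5G01335 at 19.9, 19.2, 24.3 and 31.1 CPM. These 3 were higher in both mutant libraries, the first 2 mostly in replicate 2. AT5G07215 stood at 37.1, 39.0, 49.7 and 36.1 CPM, and AT5G18633 at 39.4, 31.1, 38.8 and 14.6 CPM, both with overlapping groups. The fold change of AT5G18633, −0.38 ± 0.49, was 0.22 without PORI rpt2a replicate 2. That of AT5G07215, 0.18 ± 0.31, was −0.019 without PORI rpt2a replicate 1.

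On the side with high numbers, AT5G40605 was higher in both mutant libraries, at 54.9, 60.4, 81.5 and 89.3 CPM. Farther out, AT5G47815 stood at 47.5, 52.5, 43.9 and 34.6 CPM, AT5G54203 at 19.8, 22.2, 14.3 and 14.6 CPM, and AT5G57126 at 31.4, 24.2, 20.5 and 18.1 CPM. These 3 were lower in both mutant libraries, with log2 fold changes of −0.34 to −0.54 and edgeR adjusted p-values of 0.356 to 0.533. The last bins held AT5G64685, with 3, 10, 16 and 5 counts, and AT5G65676, with 39, 29, 24 and 7 counts.

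**Figure D5:**
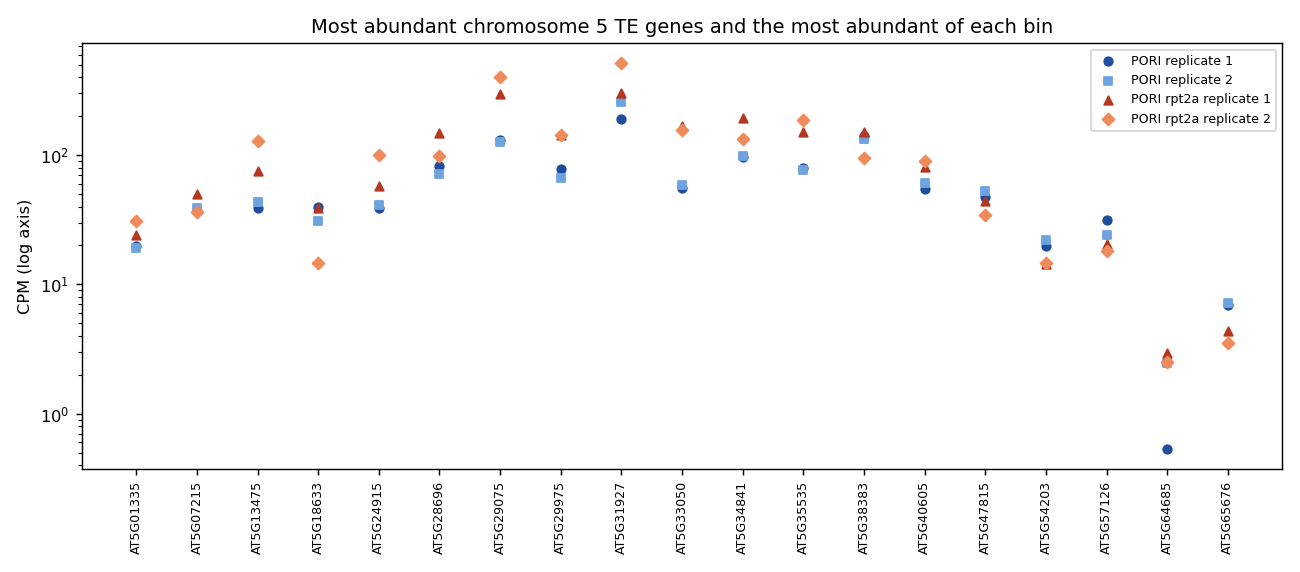
Small RNA level (TMM-normalised CPM, log axis) in each of the 4 libraries for the 8 most abundant chromosome 5 TE genes and the most abundant TE gene of each bin, ordered by locus number. AT5G33050 lies at 55.2 and 59.0 CPM in PORI against 169.3 and 156.1 CPM in PORI rpt2a, while AT5G57126 lies lower in both mutant libraries.

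The read lengths of single TE genes varied around the shares of the sum. Of the 138 TE genes with at least 50 counts in every library, the 21 and 22 nt share was higher in both mutant libraries in 102, which is 73.9%. Of all genes with such counts, 57.3% did so. The 24 nt share was lower in both in 78, which is 56.5%, against 46.2% of all genes. The median 21 and 22 nt share of the 138 was 21.7% in PORI and 32.0% in PORI rpt2a. The difference of means ran from −2.09 percentage points in AT5G30189 to 20.6 in AT5G32306, and 135 of 138 had the higher mean in PORI rpt2a. Among TE genes with at least 200 counts, the highest 24 nt shares over the 4 libraries were 76.2% in AT5G27603, 75.7% in AT5G20800 and 72.8% in AT5G42645. AT5G27603 stood at 35.3, 25.7, 41.9 and 23.6 CPM and AT5G20800 at 31.8, 40.0, 35.8 and 21.6 CPM, both with overlapping groups. AT5G42645 was lower in both mutant libraries, at 24.2, 22.7, 17.2 and 11.0 CPM. At the other end, 21 and 22 nt reads made up 48.9% in AT5G29058, 45.7% in AT5G32485 and 45.4% in AT5G32306. AT5G29058 stood at 4.06, 4.44, 18.6 and 37.1 CPM, a log2 fold change of 2.69 ± 0.46, and AT5G32485 at 5.29, 7.65, 21.02 and 44.7 CPM. These 3 were higher in both mutant libraries. Since reads over both genotypes chose them, a TE gene with more short reads in either genotype was more likely to be among them.

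A few TE genes were looked up after the values were seen. The highest fold change among those tested, 3.60 ± 0.63, was that of AT5G32082, with only 2, 1, 24 and 7 counts. Next came AT5G32423, with 32, 7, 170 and 84 counts and a log2 fold change of 3.26 ± 0.57. The lowest was that of AT5G36840, with 37, 41, 8 and 1 counts and a fold change of −2.82 ± 0.59. The edgeR adjusted p-values were 0.0686 for both of the former and 0.0718 for the latter. Of the 805, 7 carry a symbol in the TAIR10.1 gene table. The SADHU elements are non-coding retroposons of Arabidopsis. SADHU1-3 (AT5G28626) had 64, 43, 38 and 3 counts, SADHU5-2 (AT5G27927) had 20, 19, 29 and 14, and SADHU4-1 (AT5G28913) had 4, 4, 4 and 1. The MUG genes had few reads: MUG4 (AT5G16505) had 3, 0, 2 and 1 counts, MUG6 (AT5G48965) had 7, 0, 1 and 1, and MUG8 (AT5G34853) had 7, 1, 3 and 1. EXT11 (AT5G49080), named as an extensin, a cell wall protein, had 20, 12, 54 and 7 counts. SADHU1-3, SADHU5-2 and EXT11 had enough counts for the edgeR test and did not pass it, with adjusted p-values of 0.300 to 0.485. The log2 fold change of SADHU1-3, −1.23, was −0.57 without PORI rpt2a replicate 2, which had 3 counts, and −2.79 without replicate 1. EXT11 stood at 3.53, 2.96, 9.87 and 3.51 CPM, with overlapping groups and the highest level in PORI rpt2a replicate 1.

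Compared with the 3092 TE genes of chromosomes 1 to 4, those of chromosome 5 differed between the genotypes by about as much. The log2 ratio of their reads to those of the other 4 chromosomes was −1.95 and −1.91 in the PORI libraries and −1.91 and −1.85 in the PORI rpt2a libraries. The difference of 0.046 was within the spread of the libraries (exact permutation p = 0.667) and ran from 0.015 to 0.076 when each library was left out in turn. The 21 and 22 nt share of chromosome 5 exceeded that of the other chromosomes by 0.34, 0.17, 0.41 and 0.84 percentage points. The other chromosomes thus had nearly the same shares, with means of 19.02% in PORI and 31.1% in PORI rpt2a. Their tested TE genes had a median log2 fold change of 0.57, with 1635 of 2314 above 0.

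The 7614 other genes of chromosome 5 shared the shape along the chromosome in part. In their 24 nt reads, the log2 ratio of middle to arms was −0.97 and −0.93 in the PORI libraries and −0.37 and −0.28 in the PORI rpt2a libraries, a difference of 0.62. The TE genes had 0.85 for the same reads, and the excess over the other genes was 0.23, with per-library values of 3.43, 3.40, 3.57 and 3.72 (exact permutation p = 0.333). In 21 and 22 nt reads the difference was −0.37 for the other genes, where the TE genes had 0.71. The bin from 35000, which held 91.0% and 93.1% of these reads of the middle in the PORI libraries, had a log2 difference of −0.69. The bins from 25000 and 30000 had 0.95 and 1.52, the same direction as the TE genes. In the bin from 30000 the other genes stood at 584.8, 587.1, 1082 and 1153 CPM, a log2 difference of 0.93. Overlapping features can share reads there, and how such reads were counted is not given in the sources used here.

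The deposited TE table counts reads over TE annotations rather than TE genes, with identifiers numbered along the chromosome in a series of their own. In bins of 10000 identifier numbers on chromosome 5, only the bin from 40000 had higher summed levels in both mutant libraries, at 8681, 8676, 13462 and 14403 CPM, a log2 difference of 0.68, which was 0.42 with 3-table scaling. Scaled to the gene table total without TMM it was 0.37 with overlapping groups, and 0 bins were then higher. Of the other 9 bins, 8 were lower in both mutant libraries with TMM, where that gene table scaling gave 6, and that from 30000 overlapped. The 21 and 22 nt share was higher in both mutant libraries in 9 of the 10 bins. Over all TEs of chromosome 5 its means were 15.4% in PORI and 26.5% in PORI rpt2a.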

How the data were processed

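The authors deposited raw whole-number counts, as 3 tables per library for genes, TEs and miRNAs, with a column for each read length from 18 to 26 nt per the file headers. Per the labels' protocols, small RNAs were cut from a gel and made into libraries with a ligation-based kit. The submitters' processing notes name CASAVA 1.8.2, FastQC 0.11.2, cutadapt 1.9.1, HTSeq, DESeq2 and the build TAIR10. The aligner, strand use and the handling of multiply mapped reads are not given in the sources used here. The total over the 3 tables was 5806942 and 4809644 counts for PORI and 5884528 and 3241463 for PORI rpt2a.

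Counts were summed over lengths or taken at 21, 22 or 24 nt, and tested over the whole gene table with edgeR 4.0.16 in R 4.3.3 (TMM, filterByExpr with a minimum count of 10 and a minimum total of 15, quasi-likelihood test of genotype, Benjamini-Hochberg threshold 0.05). In these tests TMM was fitted anew for each read length, while summed levels and bins used the fit to all lengths. DESeq2 1.42.0, other scalings and filters, a replicate block and leaving out each library were alternatives. Single values per library were tested with an exact two-sided permutation over libraries, and shares carry 95% Wilson intervals. The scripts were tested on simulated data. In Python 3.11.15, reads were summed by bins of locus number. All 805 members matched the TAIR10.1 gene table, used for symbols and gene order only, in which 57 of 804 neighbouring pairs were out of order by locus number. It gives no TE family, so no family lists were used.

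Named are the 8 TE genes with most counts, the 5 with the smallest p-value at all lengths and at 24, 22 and 21 nt (fewer than 3 being called), the one with most counts in each bin, and, with at least 200 counts, the 3 with the highest 24 nt share and the 3 with the highest 21 and 22 nt share. Members and rules were chosen with earlier results of these data known. Over members, chi-square per degree of freedom between replicates was 2.92 for PORI and 7.02 for PORI rpt2a, so no library repeats another.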

Additional observations from a re-analysis of the deposited data

How the results depend on the processing

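The depth of PORI rpt2a replicate 2 and the 2 libraries per genotype limit every value. The permutation tests cannot pass 0.05, so only their directions and sizes are compared. The count of TE genes called by edgeR over all read lengths, 0, became 66 with no filter on low counts, 88 with the replicate block and 76 with DESeq2, and ran from 0 to 260 when each library was left out. Of all genes 2.29% were called with no filter, 7.35% with the block and 9.26% (higher) with DESeq2. These are shares of 29232, 8110 and 4698 genes, since DESeq2 shares here and below cover only genes with its adjusted p. For 24 nt reads the count of 0 became 69, 8 and 9 under the same alternatives and ran from 0 to 195. Of all genes 2.64%, 1.99% and 3.01% (higher) were called. For 22 nt reads it became 22 with no filter, 2 with DESeq2 and 91 with scaling to the total of the 3 tables, and ran from 0 to 57. Of all genes 1.01%, 0.524% (higher) and 26.3% were called. For 21 nt reads it became 5 with no filter and 23 with the 3-table scaling, and ran from 0 to 14. Of all genes 0.427% and 10.11% were called. Scaling by DESeq2 size factors or a minimum of 50 counts called 0 at each of these lengths. The cause of these changes was not tested.

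The replicate numbers pair libraries by number only: deviations from the genotype means correlated at 0.158 over 8110 genes, with 2 pairs. With the number as a block edgeR called 0 TE genes for 22 and for 21 nt reads.

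When each library was left out, the differences ran from −14.08 to −5.43 percentage points for the 24 nt share and from 8.46 to 16.37 for the 21 and 22 nt share. They ran from 0.76 to 0.81 for the log2 summed level and from 0.78 to 1.01 for the middle against the arms. The summed level was 0.77 with DESeq2 size factors, 0.52 with the 3-table total and, chosen after seeing the data, 0.47 with the gene table total and 0.76 with all TE table counts. Also chosen after seeing the data, other scales changed the bins. The 7 of 12 bins higher in both mutant libraries became 3 with the 3-table total and 2 with the gene table total, and were 7 with DESeq2 size factors.

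Over the 50 values of named TE genes and read lengths, 492 alternatives gave 366 of the same direction and call, 118 that became calls and 8 reversed. Part of these values were named for small p-values in the same data, which favours calls. The reversed log2 fold changes were, for AT5G07215, −0.0069 with the 3-table scaling and −0.019 without PORI rpt2a replicate 1. For AT5G27603 they were −0.062 with the 3-table scaling, −0.034 without PORI replicate 2 and −0.32 without PORI rpt2a replicate 1. Leaving out each library, the values ran to 0.54 for AT5G27603, from −1.22 to 0.22 for AT5G18633, from −0.68 to 0.081 for AT5G20800 and from −0.47 to 0.23 for AT5G38383, with both ends from the removal of a PORI rpt2a library.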
